A study of Mus musculus with 2 samples.

Results

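The clustered protocadherins are cell-surface adhesion proteins encoded by 3 gene arrays that lie next to each other on mouse chromosome 18. They were taken as every gene whose symbol belongs to the Pcdha, Pcdhac, Pcdhb, Pcdhga, Pcdhgb or Pcdhgc series and which has at least 1 transcript annotated as protein coding. Of 55536 annotated genes, 58 met this definition, 14 in the alpha, 22 in the beta and 22 in the gamma cluster. The 5 C-type members are the alpha genes Pcdhac1 and Pcdhac2 and the gamma genes Pcdhgc3, Pcdhgc4 and Pcdhgc5. The 58 genes carry 57 symbols, because Pcdha11 names a pair of gene rows. One of these, ENSMUSG00000007440.10, covers the interval that RefSeq gives to Pcdha10 on GRCm38.p6, and both rows are named here with their identifiers.

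Total RNA was sequenced from the hippocampus of 10-day-old B6CASTF1/J mice, whose parents come from the strains C57BL/6J and CAST/EiJ. There was 1 group with 2 biological replicates, both labelled male, each started from 300 ng of RNA with spike-in RNA added. Each label names 3 males, and whether a library pools them is not spelled out. No treatment or control group was part of the comparison, so the text gives levels, how far the libraries spread and where they differ. Values sum both parental alleles, and how reads of CAST/EiJ alleles were assigned on the mm10 reference was not tested.

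The sex-linked genes went against the label of 1 library. Xist, the RNA that coats the inactive X chromosome, had 25 counts in replicate 1, against 30841 counts in the library labelled male, replicate 2. Ddx3y and Eif2s3y, both on chromosome Y, had 2164 and 1302 counts in replicate 1 and 0 in that library. Levels and shares are therefore given for the libraries singly as well. The depth was 32035705 expected counts in replicate 1 and 29747193 in replicate 2, of which the clustered protocadherins held 41440.9 and 39969.4. Of 6 marker genes of hippocampal excitatory neurons 6 had at least 1 TPM in both libraries, as did 4 of 4 of interneurons and 5 of 5 of astrocytes.

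A single neuron is known to switch on only a few alpha, beta and gamma genes, by a largely random choice among promoters that involves DNA methylation, the zinc finger protein CTCF and cohesin. The proteins bind copies of themselves on other membranes, and the combination a neuron displays lets it tell its own branches from those of its neighbours. C-type genes follow other rules of promoter choice and most of them are used by many more of the neurons of a tissue. In whole tissue, fewer cells that use a gene and less RNA of it per cell cannot be told apart.

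Exon structure differed between the clusters. On mm10 the alpha members span 257.478 kb (chr18:36930184-37187661), the beta members 259.542 kb (chr18:37264938-37524479) and the gamma members 180.081 kb (chr18:37661793-37841873), and each lies on the plus strand. An alpha transcript joins 1 long variable exon, which encodes the extracellular and transmembrane parts, to 3 constant exons of 59, 89 and 2712 bases that encode a shared cytoplasmic tail. These 3 exons were present in 14 of 14 alpha members. Gamma transcripts are built alike, with 3 constant exons of their own of 59, 89 and 1971 bases, present in 22 of 22 members by their start and in 17 with the end of the last exon in common. Beta members have no constant exon, and the longest coding transcript of 22 of 22 is a single exon. Shared bases therefore made up a median of 53.5% of the longest coding transcript in the alpha cluster, 0% in the beta cluster and 44.9% in the gamma cluster.

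The longest coding transcripts were also compared in windows of 31 bases with the 141767 annotated transcripts. A median of 36.4% of windows was unique to the gene in the alpha cluster, 88.2% in the beta cluster and 53.3% in the gamma cluster. Pcdha4 stood at 2.18%, since Gm42416, an annotated protein-coding row, repeats its variable exon. Pcdhb1 shared no window with another gene. The posterior standard deviation of the deposited count, a measure of uncertain read assignment, had a median of 4.90% of the count in alpha members, 0.342% in beta members and 3.34% in gamma members of replicate 1. In replicate 2 these medians were 4.48%, 0.516% and 3.43%. Reads on the constant exons count towards a member only by estimate. Some rows that are not members also share bases with the clusters, so a sum over a cluster is not certain either. In counts such a sum does not depend on the split among members, unlike the levels of single alpha and gamma members. In TPM it does depend on the split among transcripts, because counts are divided by transcript length.

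**Figure D1:**
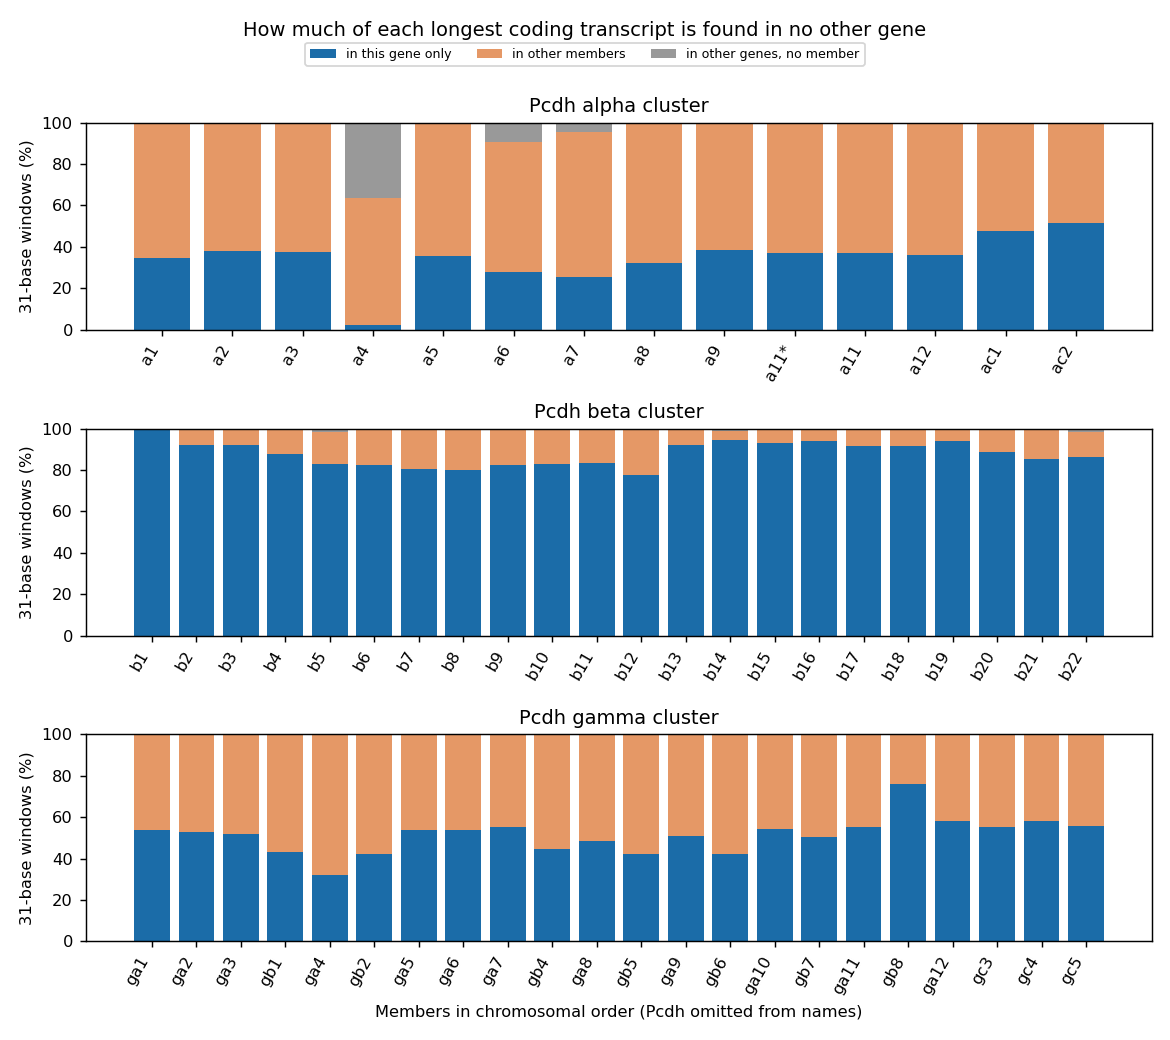
Share of 31-base windows of the longest coding transcript of each member (y axis, percent) that occur in that gene only, in other members, or in other genes that are not members, in chromosomal order. The star marks Pcdha11 ENSMUSG00000007440.10. Bars of beta members are mostly unique, with a median of 88.2%, and that of Pcdha4 is unique in 2.18% only.

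Of the 58 members, 57 had at least 1 TPM, a level scaled for transcript length and library depth, in both libraries. By cluster, the summed level was highest for gamma. The gamma members summed to 275.7 TPM in replicate 1 and 279 TPM in replicate 2 (277.5 ± 2.62, SD, n = 2), the alpha members to 89.9 and 104 TPM (96.9 ± 9.95), and the beta members to 70.7 and 70.5 TPM (70.6 ± 0.148). The gamma cluster thus held 62.4% ± 1.15 of the summed TPM of the clustered protocadherins, the alpha cluster 21.8% ± 1.63 and the beta cluster 15.9% ± 0.476. Gamma over alpha was 1.52 ± 0.13 and beta over alpha -0.45 ± 0.15 on the log2 scale. Both ratios lay on one side of 0 in both libraries, although with 2 libraries the smallest two-sided exact sign-flip p is 0.5 and no test was made. From expected counts that were not divided by length the log2 ratios were 1.19 ± 0.14 and -0.86 ± 0.15.

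Much of the lead of the gamma cluster lay in its C-type members. Without C-type members the gamma cluster summed to 124.8 and 123 TPM over 19 genes and the alpha cluster to 52.7 and 70.2 TPM over 12 genes. Outside the C-type, the median level was 6.26 TPM for a gamma member in both libraries, against 4.32 and 5.87 TPM for an alpha member. For a beta member it was 3.42 and 3.26 TPM. In expected counts the gamma median outside the C-type was above that of alpha in replicate 1, at 622 against 461. In replicate 2 it was below, at 574 against 590. C-type members held 54.7% of gamma TPM in replicate 1 and 56.0% in replicate 2, and 41.4% and 32.4% of alpha TPM. Over the 3 clusters, 5 of 58 genes held 43.1% and 41.9% of the TPM.

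Pcdhgc3, which in mouse cortical neurons promotes dendrite growth through the Wnt pathway scaffold Axin1, had the highest level of all members. It stood at 70.8 TPM in replicate 1 and 69.7 TPM in replicate 2, from 7009.5 and 6400.1 expected counts. Its mean level exceeded that of 89.2% of the 13062 protein-coding genes detected, and it lay 11.2 ± 0.114 times above the median of the gamma members outside the C-type (SD, n = 2). Pcdhgc4, which mouse cortical interneurons need to survive, followed with 53.5 and 51.5 TPM. Pcdhgc5, whose protein binds GABA-A receptors in rodent neurons, stood at 26.6 and 35.1 TPM. The libraries differed more for Pcdhgc5 than for Pcdhgc3 and Pcdhgc4, and the 3 genes kept their order in both.

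The C-type genes of the alpha cluster stood far apart from each other. Pcdhac2, the alpha member that serotonergic axons of the mouse need to tile their target regions, had 33.7 TPM in replicate 1 and 29.5 TPM in replicate 2. This was 7.81 and 5.03 times the median of the alpha members outside the C-type in the same library. Of 3 marker genes of serotonergic neurons 0 reached 1 TPM in both libraries, and their sum was 0.55 and 0.85 TPM. Pcdhac1 stood at 3.52 and 4.17 TPM, or 0.816 and 0.71 times that median. Its level thus lay among those of the other alpha genes, although its promoter is classed with the C-type.

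**Figure D2:**
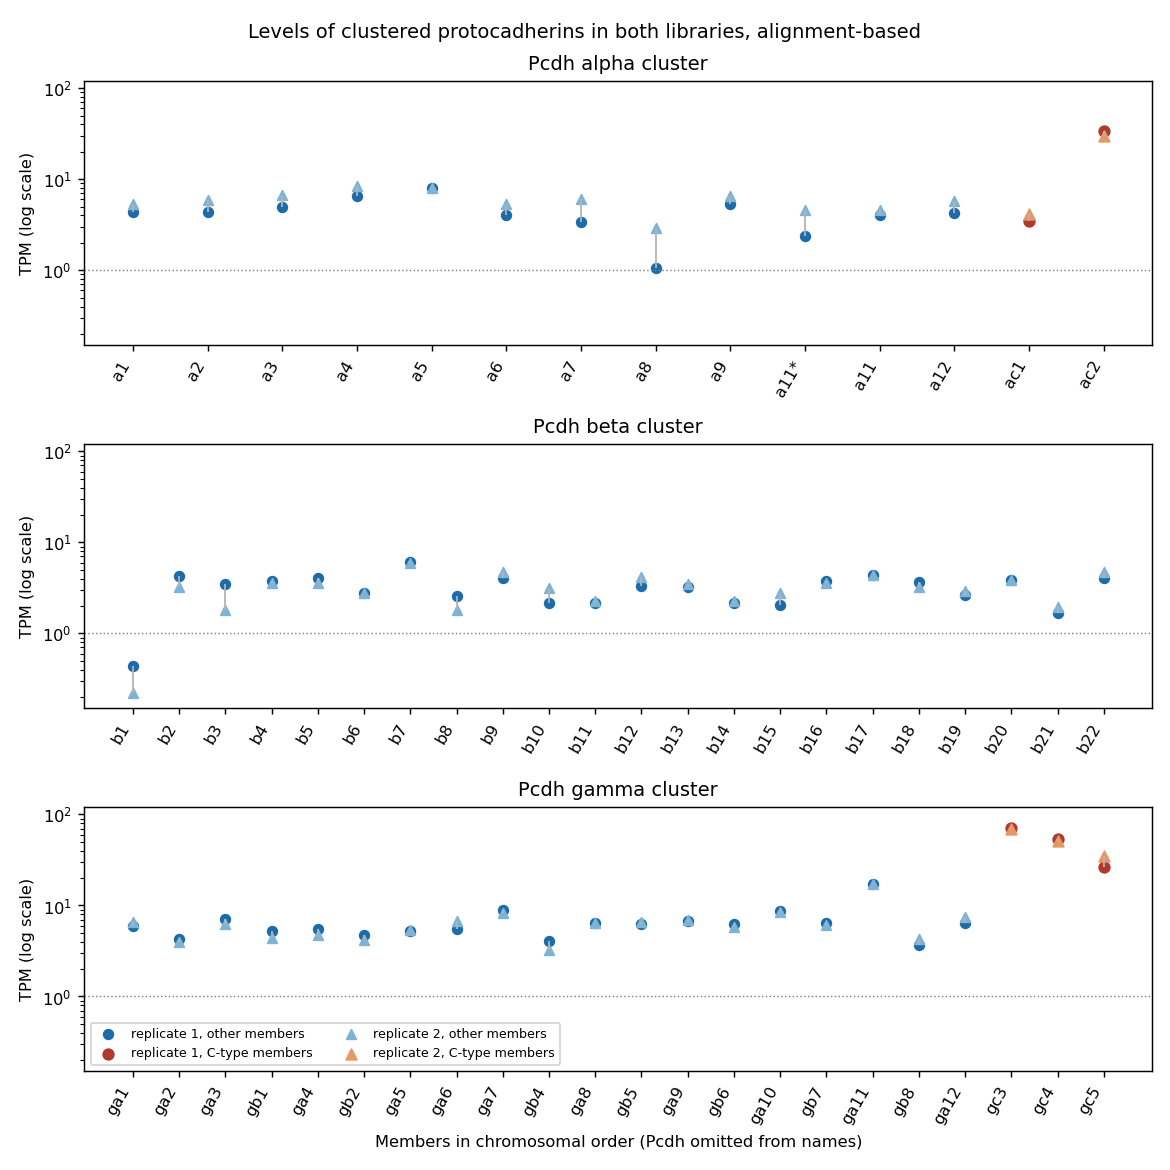
Level of each member in both libraries (y axis, TPM from alignments on a log scale) in chromosomal order, with circles for replicate 1, triangles for replicate 2 and a grey line joining them. The star marks Pcdha11 ENSMUSG00000007440.10 and the dotted line 1 TPM. The points of Pcdhac2, Pcdhgc3, Pcdhgc4 and Pcdhgc5 lie above all others, and only those of Pcdhb1 lie below 1 TPM.

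The mean levels of the 12 alpha members outside the C-type ran from 1.97 TPM for Pcdha8 to 8.01 TPM for Pcdha5, with a coefficient of variation across genes of 31.4%. Pcdha5 had 7.95 TPM in replicate 1 and 8.07 TPM in replicate 2. Pcdha4 followed with 6.52 and 8.35 TPM, a level that rests on few unique windows. Pcdha8 had 1.06 and 2.88 TPM, which made it the lowest alpha gene in both libraries.

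Among beta members, which lack a shared cytoplasmic tail, 1 gene lay far below the rest. Pcdhb1, at the end of the cluster that faces alpha, had 24 counts in replicate 1 and 11 in replicate 2, or 0.44 and 0.22 TPM. The next beta gene up in level, Pcdhb21, had 1.68 and 1.93 TPM. Pcdhb7 was the highest with 6.12 and 5.96 TPM, followed by Pcdhb9 with 4.05 and 4.78 TPM and Pcdhb22 with 4.08 and 4.69 TPM. The coefficient of variation over the 22 beta genes was 36.7%.

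The 12 Pcdhga genes summed to 88.0 and 88.5 TPM, with medians of 6.44 and 6.67 TPM, and the 7 Pcdhgb genes to 36.7 and 34.5 TPM, with medians of 5.18 and 4.42 TPM. Pcdhga11, named after its value was seen, was the highest gamma gene outside the C-type with 17.4 TPM in replicate 1 and 17.3 TPM in replicate 2. Its level stood clear of the next gene, Pcdhga7, at 8.84 and 8.28 TPM. Pcdhgb4 was the lowest gamma gene by its mean, with 4.07 and 3.21 TPM. Pcdhgb8, annotated as a polymorphic pseudogene, had 3.69 and 4.29 TPM, and its protein-coding transcript had 0 expected counts in both libraries from alignments. A second quantification, made directly from the FASTQ file, gave that transcript 6.72 counts in replicate 1 and 0 in replicate 2.

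When the 58 members were ordered by mean TPM, 7 of the 57 pairs of neighbours had libraries whose values did not overlap. Such gaps separated Pcdhgc3 from Pcdhgc4, Pcdhgc4 from Pcdhac2, Pcdhgc5 from Pcdhga11, Pcdhga11 from Pcdhga7, Pcdhga10 from Pcdha5, Pcdhb13 from Pcdhb19 and Pcdhb21 from Pcdhb1. In the other 50 pairs the order was within the spread of the libraries. Pcdhac2 and Pcdhgc5 were such a pair, since Pcdhac2 was the higher in replicate 1 and Pcdhgc5 in replicate 2. Levels showed weak relations to position: Spearman's rho between order along the cluster and mean TPM was -0.43 over 12 alpha, 0.11 over 22 beta and 0.37 over 19 gamma members outside the C-type, as a description of genes that share libraries and, in alpha and gamma, exons.

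Each library had been quantified by 2 routes, directly from the FASTQ file and from transcriptome alignments. Over 18483 genes the FASTQ-based TPM was a median of 0.64 higher on the log2 scale, so ratios are given relative to that shift. Past a centred log2 ratio of 1 in either direction lay 13.1% of all genes, 8.52% higher and 4.56% lower from the FASTQ file, and 1 of the 57 members with a mean of at least 1 TPM. The other 56 members lay between -0.72 for Pcdhb8 and 0.07 for Pcdhga12. Their levels were thus ordered much alike by both routes, with a Spearman's rho across members outside the C-type of 0.93 for alpha, 0.95 for beta and 0.996 for gamma.

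The exception was Pcdhgc4. It had 27.1 TPM in replicate 1 and 23.0 TPM in replicate 2 from the FASTQ file, against 53.5 and 51.5 TPM from alignments. The centred log2 ratio was -1.70 ± 0.13 (SD, n = 2). By the FASTQ-based route Pcdhgc4 was no longer the second highest member but lay below Pcdhac2, at 49.2 and 43.1 TPM, and below Pcdhgc5, at 34.5 and 40.5 TPM. In replicate 2 it also lay below Pcdhga11, at 24.6 TPM. Pcdhgc3 led by both routes, with 102 and 101 TPM from the FASTQ file.

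The split was located in 1 short transcript. Pcdhgc4-203, annotated as protein coding, carries 153 bases of its own and 2119 bases of gamma constant exons. It was given 1.45 and 0.373 counts from the FASTQ file, against 1700.9 and 1609 expected counts from alignments, where it made up 36.1 and 36.8 TPM of the gene. The full-length Pcdhgc4-201 had 1973 and 1594 counts from the FASTQ file, against 1529.8 and 1257.5 from alignments. Its TPM was 24.8 and 21.6 from the FASTQ file, against 14.3 and 12.7 from alignments. Which route assigned the constant-exon reads correctly was not tested.

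Gm38182, a processed transcript that shares 1530 bases with gamma members and is not a member, moved the other way. It had 510.0 and 347 counts from the FASTQ file, against 18.3 and 22.3 from alignments. Among alpha members Pcdha4 had one of the lowest centred ratios, at -0.65 ± 0.15, and the row that repeats its variable exon, Gm42416, had 68.7 and 128 counts from the FASTQ file, against 0 and 0 from alignments. The summed counts of the whole gamma cluster were 25046 and 23383 from the FASTQ file, against 25069.7 and 23358 from alignments. In counts the sum over the cluster thus differed little between routes while its split among transcripts differed. In TPM the gamma sum was 343.6 and 343.2 from the FASTQ file, against 275.7 and 279 from alignments, with the shift over all genes left in. Gm38182 had 73.3 and 54.8 TPM from the FASTQ file, against 0.98 and 1.76 TPM from alignments. C-type members held 47.6% and 48.0% of gamma TPM from the FASTQ file, against 54.7% and 56.0% from alignments.

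**Figure D3:**
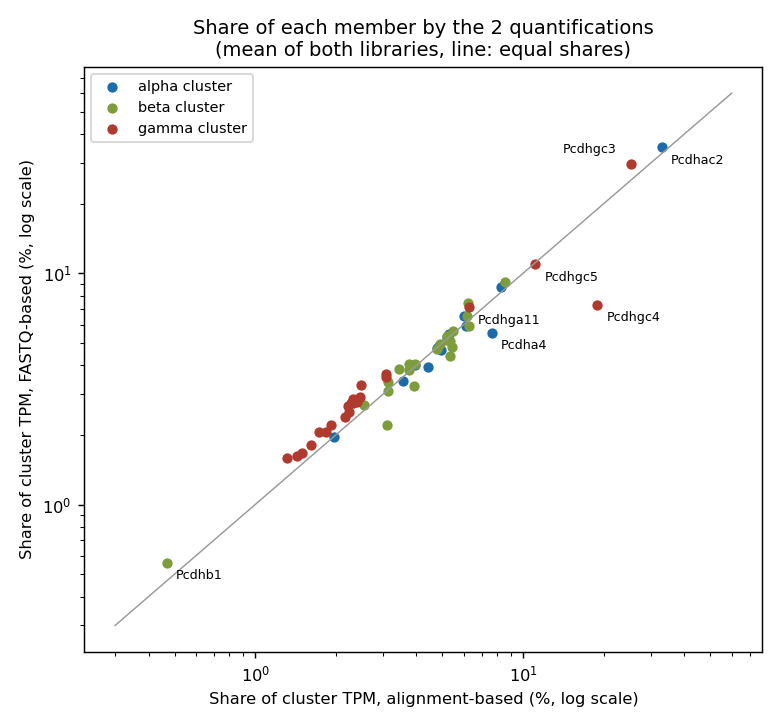
Share of each member in the TPM of its cluster from the FASTQ file (y axis, percent, log scale) against that from alignments (x axis, percent, log scale), as the mean of both libraries, with colours for the 3 clusters and a line of equal shares. Pcdhgc4 lies farthest below the line, and Pcdha4 lies below it too.

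**Figure D4:**
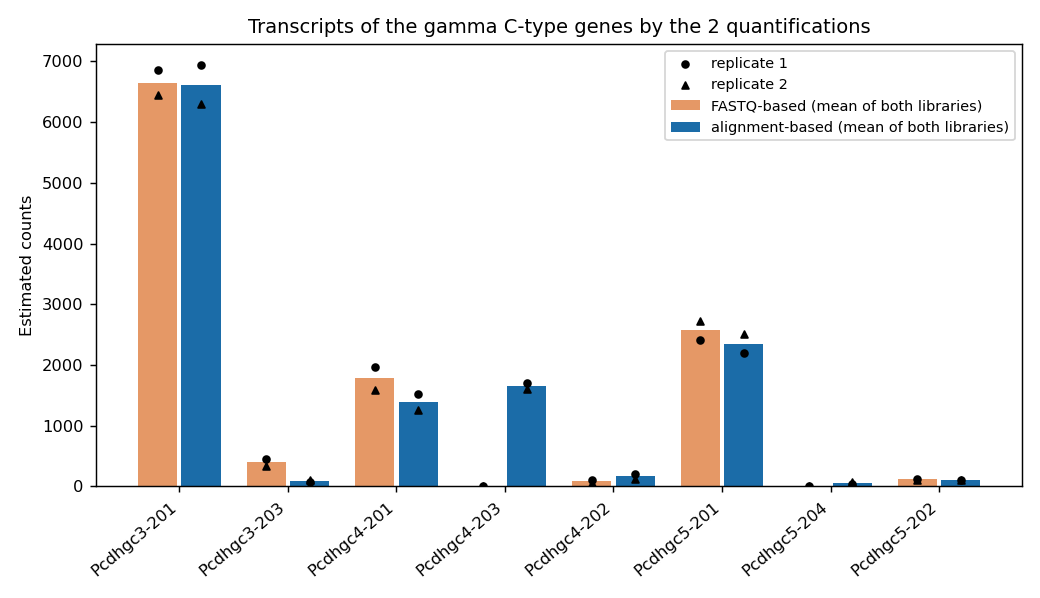
Estimated counts (y axis) of transcripts of the gamma C-type genes from the FASTQ file (left bar of each pair) and from alignments (right bar), as the mean of both libraries, with circles for replicate 1 and triangles for replicate 2. Pcdhgc4-203 has 1700.9 and 1609 expected counts from alignments and under 2 from the FASTQ file.

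The libraries were then set against each other. After TMM scaling, 19 of 57 members tested had an adjusted p under 0.05 (exact binomial test, two-sided, p-values adjusted by Benjamini-Hochberg over all genes), 5 higher and 14 lower in replicate 1. Among all 12879 genes tested, 11.8% were called, 5.5% higher and 6.28% lower in replicate 1. Such p-values compare the reads of these 2 libraries and not conditions, and they leave out the spread that further libraries would show. The median log2 ratio of replicate 1 over replicate 2 was -0.06 over the members and -0.00027 over all genes.

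Most of the calls were alpha genes. Of the 12 alpha members outside the C-type, 12 had a lower count ratio in replicate 1 and 10 were called lower. Their summed counts were 5643 in replicate 1 and 7085 in replicate 2, a log2 ratio of -0.44 with an exact 95% counting interval of -0.49 to -0.39. Pcdha8 differed most, with 120 expected counts in replicate 1 and 304 in replicate 2 (log2 ratio -1.45, interval -1.77 to -1.14, adjusted p = 8.80e-21, exact binomial test). Pcdha11 ENSMUSG00000007440.10 had 270 and 492 counts (log2 ratio -0.98) and Pcdha7 had 382 and 638 (log2 ratio -0.85). Pcdha5 and Pcdha11 ENSMUSG00000102206.5 were not called, with log2 ratios of -0.03 and -0.20.

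The C-type genes of the alpha cluster lay on opposite sides of 0. Pcdhac2 had 4231 counts in replicate 1 and 3444 in replicate 2 and was called higher in replicate 1 (log2 ratio 0.18, interval 0.12 to 0.25, adjusted p = 1.08e-06, exact binomial test). Pcdhac1 had 406 and 447 counts and was not called (log2 ratio -0.25, adjusted p = 0.0797, exact binomial test), but from FASTQ-based counts it was called lower in replicate 1 (log2 ratio -0.36, adjusted p = 0.00361, exact binomial test). Pcdhac2 thus differed in the opposite direction to the 10 called alpha genes outside the C-type.

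Beta and gamma sums were close between the libraries. The beta sum had a log2 ratio of -0.00060 with an interval of -0.05 to 0.05, and the gamma sum -0.01 with an interval of -0.04 to 0.01. Among beta genes Pcdhb3, with 279.7 counts in replicate 1 and 134 in replicate 2 (log2 ratio 0.95), and Pcdhb2, with 222 and 130.01 (log2 ratio 0.66), were called higher in replicate 1. Pcdhb10, with 129 and 173 counts, was called lower (log2 ratio -0.53). Among gamma genes Pcdhgb4 (log2 ratio 0.36) and Pcdhgb1 (0.29) were called higher, and Pcdhgc5 (-0.31), Pcdhga6 (-0.29) and Pcdhga12 (-0.23) lower. The share of members called was thus 3 of 21 tested in the beta cluster and 5 of 22 in the gamma cluster, against 11 of 14 in the alpha cluster and 11.8% of all genes.

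The calls held in part by the other route. From FASTQ-based counts 19 of 56 members tested were called, 4 higher and 15 lower in replicate 1, against 11.9% of all genes tested by that route, of which 5.22% were higher and 6.65% lower in replicate 1. In all, 16 members were called by both routes in the same direction, 9 of them alpha members outside the C-type. The deposited TPM intervals, whose level is not stated, come from the alignments used for the calls. No share over all genes was computed for them. They lay apart between the libraries for 11 of the 19 called members. These were Pcdha2, Pcdha3, Pcdha6, Pcdha7, Pcdha8, Pcdha11 ENSMUSG00000007440.10, Pcdha12, Pcdhac2, Pcdhb3, Pcdhb10 and Pcdhgc5. Since alpha members share their constant exons, their count estimates within a library are not independent of each other.

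Markers of other cell types also differed between the libraries. The 9 choroid plexus markers summed to 13.7 TPM in replicate 1 and 359 TPM in replicate 2. Ttr held most of these sums, with 8.02 and 340 TPM, while Kl had 1.76 and 2.08 TPM. The count ratio was lower in replicate 1 for 9 of 9. The 6 myelin markers summed to 195.0 and 335 TPM and the 5 red blood cell markers to 958 and 566 TPM. The 6 markers of meninges and fibroblasts summed to 207 and 173 TPM. Igf2 had 99.9 and 73.5 TPM of these and Col3a1 23.6 and 24.0 TPM, and 5 of 6 had a higher count ratio in replicate 1. The 6 markers of excitatory neurons summed to 2264 and 2448 TPM, the 4 of interneurons to 379 and 369 TPM and the 5 of astrocytes to 1091 and 1189 TPM. No marker in these lists was at 0 in both libraries. Their part in the differences of alpha members was not tested, nor was that of the sex-linked difference.

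**Figure D5:**
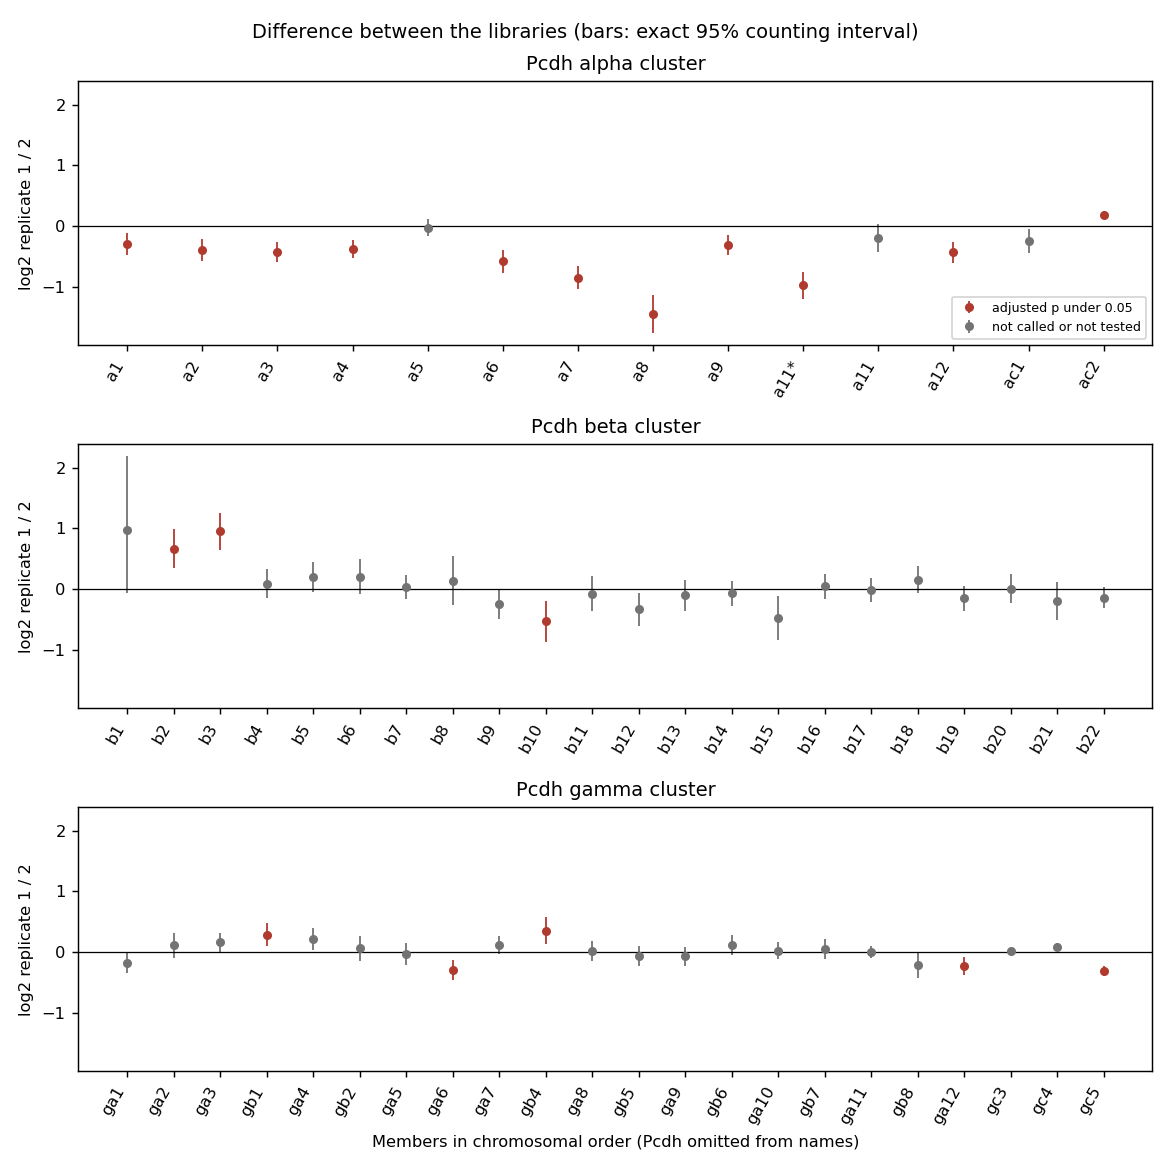
Log2 ratio of replicate 1 over replicate 2 in TMM-scaled expected counts (y axis) for each member in chromosomal order, with exact 95% counting intervals as bars and called members in red. The star marks Pcdha11 ENSMUSG00000007440.10. Points of the 12 alpha members outside the C-type lie below 0, down to -1.45 for Pcdha8, and that of Pcdhac2 lies above it.

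Genes that regulate the clusters or act with their proteins were detected throughout. Of 23 regulators of promoter choice and silencing 23 had at least 1 TPM in both libraries, led by the DNA methyltransferase gene Dnmt3a with 129 TPM in replicate 1 and 139.9 TPM in replicate 2 and the corepressor gene Trim28 with 125 and 118 TPM. Ctcf stood at 28.5 and 33.0 TPM, and Dnmt3b, the lowest, at 1.01 and 1.03 TPM. Of 22 tested 1 was called, Tet2, higher in replicate 1 (log2 ratio 0.12), a share of 4.55% against 11.8% of all genes. That call was lost with a mean count of at least 10, where 0 of 23 were called, against 8.78% of all genes. From FASTQ-based counts 0 were called higher and 2 lower (9.09%), against 11.9% of all genes. Of 20 genes for intracellular partners and processing 20 were detected, from Psen2 at 10.3 and 9.33 TPM to Nckap1, a subunit of the WAVE actin regulatory complex, at 184 and 187 TPM. Ptk2 (log2 ratio -0.12) and Ptk2b (-0.23), focal adhesion kinases that the shared tails inhibit, were called lower in replicate 1, which made 2 of 20 tested (10%), close to the 11.8% of all genes. Of 17 non-clustered protocadherin and Celsr symbols listed, 15 matched a gene row, and these 15 were detected, from Pcdh12 at 2.03 and 1.96 TPM to Pcdh1 at 125 and 135 TPM. Pcdh19 was called higher (log2 ratio 0.13) and Pcdh1 lower (-0.10) in replicate 1, or 2 of 15 tested (13.3%), close to the share of all genes. From FASTQ-based counts 4 of the 15 were called (26.7%), 1 higher and 3 lower, against 11.9% of all genes by that route. The 15 genes summed to 551.8 and 551 TPM, against 436 and 454 TPM for the 58 clustered members.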

How the data were processed

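Expected counts and TPM per gene and transcript were deposited by the authors from transcriptome alignments to mm10 with GENCODE M21, and estimated counts and TPM per transcript from the FASTQ file, as the deposited descriptions state. These deposited counts were not normalized, and the deposited TPM are scaled for length and to 1 total in each library. Not given in the sources used here are the tools and the use of strand. FASTQ-based transcripts were summed per gene.

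Levels are mean ± SD of 2 libraries, which measures only the spread between these samples. For the comparison of libraries, counts were rounded and scaled by TMM in edgeR 4.0.16 under R 4.3.3. Genes whose mean count reached 100 were tested by an exact binomial test, two-sided, with p-values adjusted by Benjamini-Hochberg and called at 0.05. Log2 ratios use a prior count of 0.5. Intervals are exact Clopper-Pearson at 95%. No source used here names molecular identifiers, and intervals cover counting error only. Routes were compared with a pseudocount of 0.1 TPM. In simulated libraries with counting noise only, over 12879 genes, the test called 54%, 92%, 98% and 100% of genes changed 1.2-, 1.5-, 2- and 3-fold, and 0.0552% of 12679 unchanged genes. The biological coefficient of variation across 17874 genes was 0.0688.

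Gene rows named only by a number (2.81e-05% of counts in replicate 1 and 2.00e-05% in replicate 2) were excluded, as were spike-ins. Named genes were all C-type members, the 3 highest and the lowest of each cluster, the 5 furthest apart between routes in each direction, the 5 called with the largest log2 ratio, and the highest and lowest of other lists. Further genes were named after their values were seen. Members and lists were chosen with earlier results of these data known. Sequences are not printed. Alternatives were the FASTQ-based table, single libraries, counts not divided by length, protein-coding transcripts only, adding overlapping rows, other thresholds, another pseudocount, a lower count minimum and DESeq2 1.42.0 size factors. Other steps used Python 3.11.15, numpy 2.4.6, pandas 2.3.3, scipy 1.17.1 and matplotlib 3.10.9.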

Additional observations from a re-analysis of the deposited data

How the results depend on the processing

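Most results kept their direction. The FASTQ-based table gave summed levels of 133 TPM for alpha, 91.7 TPM for beta and 343 TPM for gamma, a log2 gamma over alpha of 1.37 and a C-type share of gamma of 47.8%. Expected counts not divided by length gave log2 ratios of 1.19 for gamma over alpha and -0.86 for beta over alpha, and a C-type share of gamma of 51.3%. Transcripts annotated as protein coding alone gave 263 TPM for gamma and a C-type share of 56.6%. At a threshold of 5 TPM, 21 members were detected in both libraries. From single libraries, summed levels ranged from 89.9 to 104 TPM for alpha, 70.5 to 70.7 TPM for beta and 275.7 to 279 TPM for gamma, the log2 ratios from 1.43 to 1.62 and from -0.56 to -0.35, and the C-type shares from 32.4% to 41.4% of alpha and 54.7% to 56.0% of gamma. Adding the overlapping rows of the plus strand to the alignment-based TPM moved no sum or share of a cluster beyond its spread. By that route Gm38182 had 0.98 and 1.76 TPM, against 73.3 and 54.8 TPM from the FASTQ file, where the addition was not tested. A threshold of 0.5 TPM moved no count of clustered members by over 1.5 times. Neither did a mean count of at least 10 or DESeq2 size factors, for clustered members or all genes. Among regulators of promoter choice, a mean count of at least 10 lost the 1 call. With FASTQ-based counts the log2 ratio between libraries changed sign for 3 named members that were not called, to -0.0053 for Pcdhgc3, -0.039 for Pcdhb7 and -0.029 for Pcdhga8. There Pcdha4, Pcdhgb1 and Pcdhgb4 lost their calls, and Pcdhac1 (-0.36), Pcdhgc4 (0.21) and Pcdhb15 gained one. The cause was not tested. No paired analysis was possible because there is 1 group. Depth limits Pcdhb1, which had too few counts for the test.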

Other observations

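Other annotated rows overlap the clusters. On the minus strand BC037039, antisense to gamma members, had 50 counts in replicate 1 and 54 in replicate 2, and Gm26672 had 44 and 42. In the alpha cluster the antisense row Gm10545 had 11.8 and 21.7 expected counts. Strand use in counting is not stated, and without it reads of these rows and of the members they overlap cannot be told apart. Gm37013 and Gm37388, annotated as protein-coding rows that join alpha variable exons to gamma constant exons, had 0 counts in both libraries by both routes. Gm42416, the protein-coding row that repeats the Pcdha4 variable exon, shares 2410 bases with alpha and 446 bases with gamma members. It had 68.7 and 128 counts from the FASTQ file, against 0 and 0 from alignments.

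In 5 alpha members an annotated transcript has the third constant exon split by an intron. These transcripts held 12.7% of the alpha counts in replicate 1 and 10.2% in replicate 2 from the FASTQ file, against 11.1% and 9.70% from alignments. The split lies in shared sequence, so the members that use it cannot be told apart from these reads. Transcripts annotated as retaining an intron held 3.06% and 2.58% of the counts of the clustered protocadherins from the FASTQ file, against 2.20% and 2.06% from alignments.

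The beta cluster was also divided after seeing the values. Its 8 genes nearest to alpha summed to 1909.9 counts in replicate 1 and 1459 in replicate 2. The other 14 summed to 4181 and 4176. After TMM scaling the log2 ratio of replicate 1 over replicate 2 was 0.28 for the 8 genes and -0.11 for the 14. Because the division followed the values, these ratios are a description and test nothing. Among the 8 genes, the 2 called were Pcdhb2 and Pcdhb3. From FASTQ-based counts, 4 of the 6 tested had a higher count ratio in replicate 1 and 2 a lower one. The first exon had a median GC content of 46.0% in beta, 53.1% in alpha and 52.5% in gamma members. These are unlike parts. In beta members this exon is the whole longest coding transcript, of 2588 to 8695 bases, and in alpha and gamma members the variable exon.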
